A study of Mus musculus with 6 samples.

Results

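Glycolysis splits glucose into pyruvate in the cytosol. Pyruvate is then reduced to lactate by lactate dehydrogenase and exported, or it enters mitochondria and is oxidised by the pyruvate dehydrogenase complex. The retina is known for sending much of its glucose to lactate even when oxygen is present, and photoreceptors rely on glucose that crosses the pigment epithelium. Most steps are carried out by isozymes, which are enzymes of the same reaction encoded by separate genes. The genes described here were fixed by symbol: 34 genes of glucose and lactate transport, glycolysis and pyruvate dehydrogenase, out of 12393 genes that probe sets of the array name singly.

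Retinal total RNA was taken from mice at postnatal day 7 and hybridised to Affymetrix arrays, 1 array per sample. The wildtype group held 3 arrays from C57BL/6 mice. The knockout group held 3 arrays from C57BL/6 mice carrying the knockout, which the series design gives as hemizygous males. The sex of the wildtype mice, the number of animals behind an array and the design of the targeted allele are not given in the sources used here. At this age photoreceptors are still maturing. Whole retina was measured, so fewer cells of a type and less RNA per cell cannot be told apart.

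Of the 34 genes, 31 had at least 1 probe set (a group of short probes against 1 transcript) that the platform annotation assigns to that gene alone, 58 probe sets in all. The brightest probe set over the 6 arrays stood for each gene. Signals were scaled to the same trimmed mean in every array and are given in those arbitrary units, which do not allow the level of 1 gene to be set against that of another. A filter on dim signals left 28 genes, and Pfkfb2, Pfkfb3 and Pgam2 lay under it. Of the brightest probe sets of the 28 genes, 10 end in _a_at, 4 in _x_at and 1 in _s_at. Probe sets with such suffixes can match more than 1 transcript. The _x_at sets are those of Aldoa, Tpi1, Pgk1 and Dlat, and the _s_at set is that of Slc2a3. Gapdh was read only through the 3 control probe sets of the array, because its other probe sets also carry the symbols of Gapdh pseudogenes. Gpi1 and Eno1 were not analysed here. The retinal transcription factors Crx, Nrl and Otx2 and the rod arrestin Sag lay at or above the 98.8th percentile of signal, and the tissue label is retina.

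Knockout array 1 correlated with the other arrays at 0.914 to 0.936, against 0.958 to 0.979 among the remaining 5. It was the highest array for 25.3% and the lowest for 28.2% of all 13575 probe sets tested. The 3' to 5' signal ratio of the Actb control, a measure of RNA integrity, was 1.44 to 1.64 on the wildtype arrays and 2.17, 1.69 and 1.90 on knockout arrays 1 to 3. Wildtype array 2 had the lowest trimmed mean before scaling, 171 against 215 to 312. Its signal at the 5' end of the 18S ribosomal RNA control was 2573. That signal was 609 on knockout array 1 and 38.8 to 54.9 on the remaining arrays. Wildtype array 2 was the highest array for 16.7% and the lowest for 15.6% of all probe sets tested. Values that lean on knockout array 1 are also given without it where they moved most.

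The promoters of these genes were compared with all promoters for sequence features that played no part in choosing the genes. RefSeq windows (GRCm38.p6) from 250 bases before to 50 bases after each annotated start were found for 32 of the 34 genes, 49 windows in all. They were searched on both strands for ACGTG and GCGTG, the core letters of the element through which hypoxia-inducible factors act on glycolytic genes. At least 1 of these was found in 26 of 32 genes (81.2%), against 46.7% of all 27025 genes with a window. ACGTG alone was found in 18 of 32 genes (56.2%, against 21.8%). A gene with several windows has more chances of a match. By window the shares were 73.5% against 43.8% for either motif, and 44.9% against 19.6% for ACGTG. The windows of these genes were also richer in G and C, with a median of 61.3% against 52.7%. Among windows with at least 60% G and C, 24 of 27 held either motif (88.9%), against 69.2% of all such windows. ACGTG was held by 17 of the 27 (63%, against 26.5%). CACGTG, the E-box bound by Myc, contains ACGTG and was found in 6 of 32 genes (18.8%, against 8.09%). By window its share was 12.2% against 7.15%. A match describes letters and shows no binding.

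The promoters of the lactate dehydrogenase genes are printed because the 2 isozymes are compared in the arrays and their windows hold different numbers of these letters, and those of Pgk1, Pfkm, Pfkp and Mpc1 because their wildtype and knockout signals did not overlap. Slc2a3, the fifth such gene, was not matched to a window. All run 5′ to 3′ along the strand of the gene, with matches to the first 2 motifs, read on either strand, in capitals.
Ldha, chr7:46845554-46845853, plus strand: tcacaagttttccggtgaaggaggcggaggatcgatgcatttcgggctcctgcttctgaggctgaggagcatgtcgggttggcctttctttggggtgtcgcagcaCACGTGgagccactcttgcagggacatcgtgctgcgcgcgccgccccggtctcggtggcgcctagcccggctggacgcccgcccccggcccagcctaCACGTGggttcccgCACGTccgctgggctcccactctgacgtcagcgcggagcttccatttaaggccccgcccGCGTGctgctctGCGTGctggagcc
Ldhb, chr6:142507908-142508207, minus strand: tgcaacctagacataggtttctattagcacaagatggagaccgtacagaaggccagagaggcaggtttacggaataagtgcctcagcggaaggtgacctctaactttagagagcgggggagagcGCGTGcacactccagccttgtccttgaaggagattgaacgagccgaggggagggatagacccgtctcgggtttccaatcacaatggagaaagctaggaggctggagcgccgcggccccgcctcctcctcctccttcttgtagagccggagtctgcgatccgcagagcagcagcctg
Pgk1, chrX:106186850-106187149, plus strand: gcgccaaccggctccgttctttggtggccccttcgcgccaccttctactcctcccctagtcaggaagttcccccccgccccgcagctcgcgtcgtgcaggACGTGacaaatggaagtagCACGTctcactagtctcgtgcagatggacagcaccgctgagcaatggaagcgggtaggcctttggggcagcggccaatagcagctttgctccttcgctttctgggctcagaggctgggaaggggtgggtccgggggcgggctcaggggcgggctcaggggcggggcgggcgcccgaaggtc
Pfkm, chr15:98092339-98092638, plus strand: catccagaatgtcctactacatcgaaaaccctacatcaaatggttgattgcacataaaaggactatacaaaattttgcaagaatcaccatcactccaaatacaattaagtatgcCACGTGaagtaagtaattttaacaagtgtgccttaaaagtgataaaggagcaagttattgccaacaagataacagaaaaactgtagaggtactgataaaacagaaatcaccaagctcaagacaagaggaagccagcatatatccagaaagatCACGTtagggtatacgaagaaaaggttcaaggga
Pfkp, chr13:6648722-6649021, minus strand: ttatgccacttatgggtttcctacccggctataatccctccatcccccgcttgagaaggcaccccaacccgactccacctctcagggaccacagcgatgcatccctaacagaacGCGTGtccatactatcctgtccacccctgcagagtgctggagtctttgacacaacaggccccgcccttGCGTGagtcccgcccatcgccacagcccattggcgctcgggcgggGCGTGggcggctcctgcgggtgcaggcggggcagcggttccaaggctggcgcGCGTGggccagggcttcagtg
Mpc1, chr17:8283537-8283836, plus strand: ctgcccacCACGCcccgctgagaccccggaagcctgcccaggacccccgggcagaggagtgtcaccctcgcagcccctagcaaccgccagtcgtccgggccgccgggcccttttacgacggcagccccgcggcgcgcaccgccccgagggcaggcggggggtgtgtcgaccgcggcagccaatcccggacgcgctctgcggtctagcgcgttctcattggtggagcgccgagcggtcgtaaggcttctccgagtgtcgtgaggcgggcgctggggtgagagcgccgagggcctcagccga
The Ldha window holds ACGTG at 3 places, 2 of which are CACGTG and so read ACGTG on both strands, and GCGTG at 2. The Ldhb window holds the first motif at 0 places and the second at 1. The first stands at 2 places in Pgk1 and at 2 in Pfkm, 1 of them an E-box. The second stands at 4 places in Pfkp and at 1 in Mpc1. Pfkm has 4 windows and Ldha and Mpc1 have 2 each, of which the first is shown.

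No gene of the set passed the test of knockout against wildtype. The limma fit over all probe sets, with Benjamini-Hochberg adjustment, called 0 of 28 tested at 0.05 (adjusted p = 0.999 for each), against 2 of all 13575 probe sets (0.0147%). At an unadjusted p under 0.05 there were also 0 of 28 (smallest 0.054, limma). Counting every tested probe set of these genes, 2 of 49 had an unadjusted p under 0.05 (4.08%, against 3.82% of all probe sets) and 0 passed after adjustment. They were the dimmer probe sets of Pfkp and Hk1. Positive log2 fold changes (knockout minus wildtype) were found for 14 genes and negative ones for 14, beside 50.1% positive over all probe sets. Their median was -0.0074, and that of all probe sets 0.00031. None of the 28 brightest probe sets reached 1.5-fold. Of all 49, 3 did (6.12%, against 3.79% of all probe sets), the dimmer ones of Hk1 (-0.95), Pfkp (-0.77) and Pdha1 (-0.74), each with its lowest signal in knockout array 1.

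For the brightest probe sets, all 28 intervals (95%, limma) included 0 and lay within 2-fold, between -0.76 and 0.80 on the log2 scale, and 17 lay within 1.5-fold. Over all 49 probe sets, 47 intervals included 0 and 46 lay within 2-fold. Those outside were Hk1 (-1.88 to -0.017), Pfkp (-1.45 to -0.10) and Pdha1 (-1.61 to 0.14). Across the 6 arrays the ratio of highest to lowest signal ran from 1.18 (Ldha) to 2.29 (Slc16a3), with a median of 1.54 against 1.60 over all probe sets. The 28 probe sets were bright, at a median percentile of 92.1, which the filter and the choice of the brightest probe set favour. The same choice limits the comparison of 1.54 with 1.60.

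**Figure D1:**
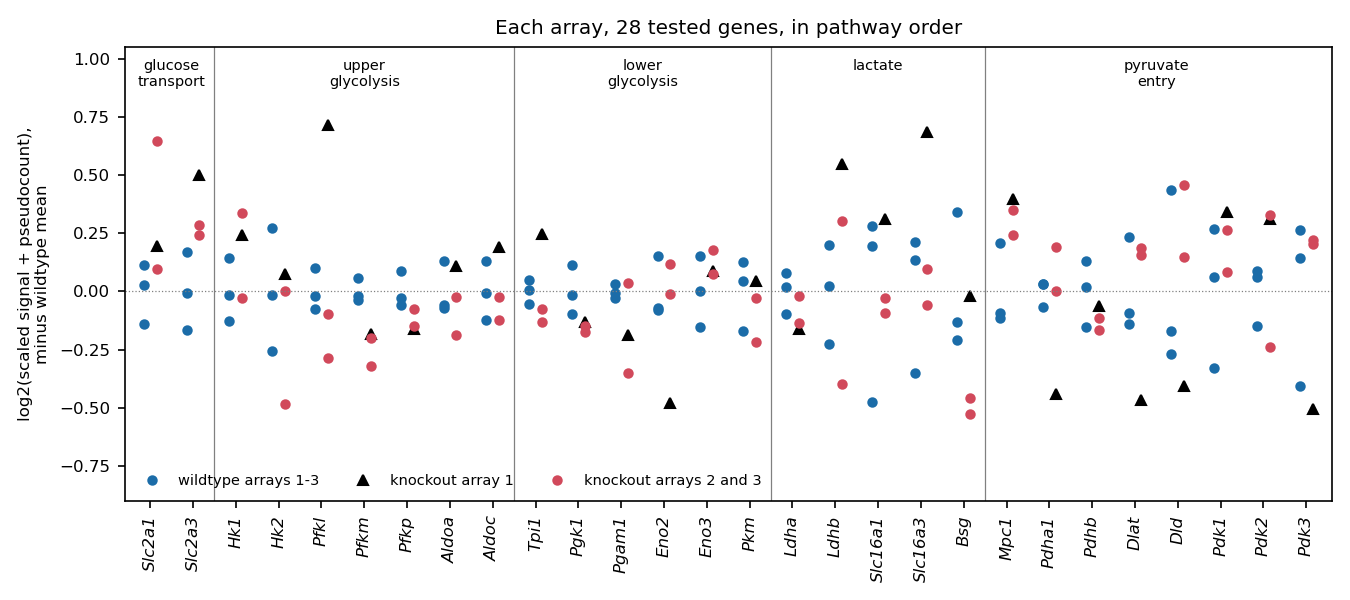
Each point is 1 array, plotted as log2(scaled signal + pseudocount) minus the wildtype mean, for the 28 tested genes in pathway order. Wildtype and knockout points intermingle for most genes, and knockout array 1 lies apart from arrays 2 and 3 for Pfkl, Pdha1, Dlat, Dld and Pdk3.

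**Figure D2:**
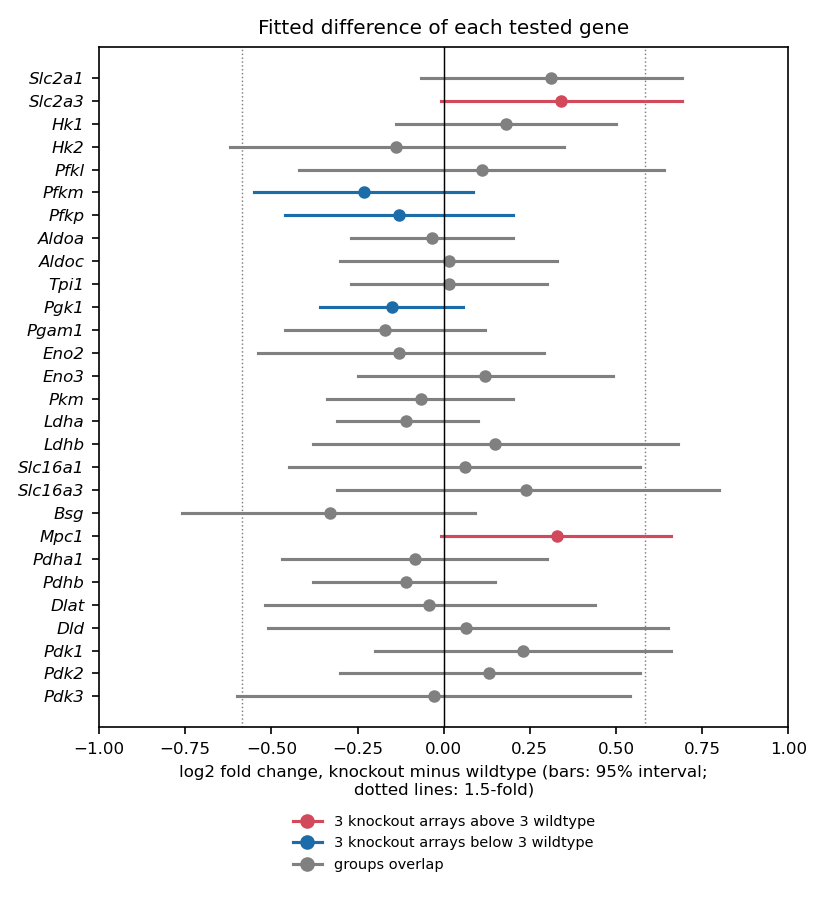
Log2 fold change of each tested gene, by its brightest probe set, with its 95% interval from limma. All 28 intervals cross 0 and stay within 2-fold, and the coloured genes are the 5 whose groups did not overlap.

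The groups did not overlap for 5 of 28 genes, 2 with knockout above wildtype (4.05% of all probe sets) and 3 with knockout below (5.05%). In either direction the share over all probe sets was 9.10%. The split depended on the scaling. It was 2 above and 2 below with quantile normalization, 3 and 0 with median scaling, and 2 and 0 without rescaling. Leaving out rescaling moved the median of all probe sets to 0.29. The genes changed as well. Slc2a1 joined Slc2a3 and Mpc1 with median scaling, and Slc16a3 joined Slc2a3 without rescaling.

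Glucose enters retinal cells through facilitative transporters. Slc2a1 encodes GLUT1, the transporter of the blood-retinal barrier and of photoreceptors, and Slc2a3 encodes GLUT3, the high-affinity neuronal form. Slc2a3 had scaled signals of 720, 635 and 566 on the wildtype arrays and 909, 781 and 758 on the knockout ones. All 3 knockout arrays lay above the wildtype arrays. Wildtype averaged 640 ± 77.4 and knockout 816 ± 81.2 (SD, n = 3), a log2 difference of 0.34 with an SE of 0.16 (adjusted p from limma, 0.999), or 0.26 without knockout array 1. A second tested probe set had 0.14, and 2 dim ones under the filter had -0.49 and -0.75. In the one at -0.75 all 3 knockout arrays lay below the wildtype arrays. Its signals were 39.7, 45.1 and 24.6 on the wildtype arrays and 6.56, 21.2 and 14.1 on the knockout ones. The mean over all Slc2a3 probe sets was -0.19. Scaling moved the brightest probe set to 0.31 (quantile), 0.44 (median) and 0.65 (none).

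Slc2a1 had signals of 1286, 1077 and 1213 on the wildtype arrays and 1365, 1869 and 1272 on the knockout ones. Knockout array 2 was the highest, and knockout array 3 lay inside the wildtype range. Its log2 fold change was 0.31 (95% interval -0.066 to 0.69), and 0.15 without knockout array 2. The 2 other probe sets had -0.028 and -0.03.

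In upper glycolysis, hexokinases trap glucose in the cell. Hk1, the main hexokinase of neural tissue, had 1713, 1534 and 1415 on the wildtype arrays and 1835, 1517 and 1962 on the knockout ones. These ranges overlapped, with a log2 fold change of 0.18 (95% interval -0.14 to 0.50). Its other tested probe set ran the other way at -0.95, with 421, 805 and 618 on the wildtype arrays and 142, 566 and 320 on the knockout ones. Without knockout array 1 that value was -0.46. Hk2, the inducible form found in photoreceptors, averaged 214 ± 43.3 (wildtype) and 194 ± 42.2 (knockout; SD, n = 3).

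Phosphofructokinase commits sugar to glycolysis and is built from liver (Pfkl), muscle (Pfkm) and platelet (Pfkp) type subunits, named after tissues. Pfkm had 633, 598 and 591 on the wildtype arrays and 533, 526 and 482 on the knockout ones. The groups did not overlap, and the log2 fold change was -0.23 ± 0.14 (SE). It was -0.26 without knockout array 1, -0.14 with median scaling and 0.072 without rescaling. Pfkp had 369, 361 and 401 against 335, 338 and 356, again with all knockout arrays below, at -0.13 (-0.04 with median scaling and 0.17 without rescaling). Its second probe set had -0.77, and -0.50 without knockout array 1.

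Pfkl went with a single array. It had 1157, 1259 and 1113 on the wildtype arrays and 1939, 1097 and 959 on the knockout ones. Knockout array 1 was the highest of all 6 and arrays 2 and 3 were the lowest. The log2 fold change was 0.11, and -0.19 without knockout array 1. Its second probe set had -0.15.

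The bifunctional enzymes encoded by Pfkfb2 and Pfkfb3 set the level of the activator of phosphofructokinase. Both lay under the filter. Pfkfb2 had 65.1 ± 16.7 in wildtype and 45.5 ± 8.65 in knockout, and Pfkfb3 57.1 ± 8.20 and 62.9 ± 21.7 (SD, n = 3). A second, dimmer Pfkfb3 probe set had 63.6, 65.0 and 55.0 on the wildtype arrays and 20.5, 38.5 and 32.8 on the knockout ones, without overlap and with the lowest value in knockout array 1.

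Aldolase splits the phosphorylated sugar. Its ubiquitous form Aldoa and its neural form Aldoc had log2 fold changes of -0.035 (95% interval -0.27 to 0.20) and 0.014 (-0.30 to 0.33). The 4 Aldoa probe sets ranged from -0.29 to 0.14.

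In lower glycolysis, Tpi1, Pgk1, Pgam1, the enolases and Pkm carry the triose phosphates to pyruvate. Pgk1, the first step that yields ATP, had 5365, 6209 and 5681 on the wildtype arrays and 5238, 5178 and 5090 on the knockout ones. All 3 knockout arrays lay below the wildtype arrays. The log2 difference was -0.15 with an SE of 0.092 (adjusted p from limma, 0.999), and the 3 Pgk1 probe sets agreed within 0.041, from -0.15 to -0.11. The groups overlapped in the 2 other probe sets. With quantile normalization the value was -0.069, with median scaling -0.057 and without rescaling 0.17.

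Gapdh, which links oxidation of the triose to phosphate transfer, had middle control signals of 6057, 7492 and 5501 on the wildtype arrays and 5623, 5636 and 5477 on the knockout ones. These ranges overlapped (a shift of -0.17 on the log2 scale; two-sided exact permutation p = 0.30). At the 5' end of the transcript the signals were 6092, 8231 and 5943 against 4627, 5809 and 4349. There the groups did not overlap (-0.45; two-sided exact permutation p = 0.10, the smallest that 3 against 3 arrays allow). At the 3' end the difference was -0.20 (exact permutation p = 0.20). The 3' to 5' ratio of Gapdh was 0.824 to 0.982 on the wildtype arrays and 1.18, 0.884 and 1.16 on the knockout ones, and the Actb ratio was higher in all 3 knockout arrays (exact permutation p = 0.10). The part of transcript integrity in the Gapdh values was not tested.

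Tpi1 averaged 2945 ± 103 (wildtype) and 2993 ± 441 (knockout; SD, n = 3), with its 3 probe sets from -0.12 to 0.014. Pgam1, the mutase of brain and most tissues, stood at -0.17 on the log2 scale (95% interval -0.46 to 0.12). Pkm, the pyruvate kinase gene of both the M1 and the M2 splice form, had -0.067 (-0.34 to 0.20). The probe set does not separate the splice forms in the annotation used here.

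Pgam2 and Eno3 are the muscle forms of the mutase and the enolase. Pgam2 stayed between 6.91 and 13.6 on all 6 arrays, under the filter. Eno3 lay at 152 to 192 in wildtype and 181 to 196 in knockout. The summed signal of 14 skeletal muscle markers was 705 to 830 in wildtype and 527 to 641 in knockout arrays, and 5 of 5 tested muscle markers had negative values. Eno3 had 0.12. Myh4 stayed at or under 4.25 on every array. Acta1 (205), Mylpf (89.8), Tnnc2 (60.3) and Tnnt3 (35.3) were highest on wildtype array 3, as was Eno3 among the wildtype arrays. Other markers went the other way, with Ckm (59.9) and Myoz1 (89.3) lowest of all arrays on wildtype array 3. Casq1 (103), Des (86.5) and Pvalb (35.2) were lowest there among the wildtype arrays. The highest Eno3 signal of all, 196, was on knockout array 2. The part of muscle tissue in the Eno3 values was not tested. Eno2, the neuronal enolase, had 766, 760 and 895 on the wildtype arrays and 572, 874 and 799 on the knockout ones. Knockout array 1 was the lowest, and the log2 fold change was -0.13 with it and 0.052 without it.

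Lactate dehydrogenase turns pyruvate into lactate. Ldha encodes the M subunit that favours lactate production, and Ldhb the H subunit that favours pyruvate. Ldha had 7017, 7312 and 6462 on the wildtype arrays and 6182, 6293 and 6828 on the knockout ones. The groups overlapped, at -0.11 (95% interval -0.31 to 0.10). Ldhb had 1313, 1161 and 974 against 1678, 861 and 1410, with a log2 fold change of 0.15 (-0.38 to 0.68). All 4 Ldhb probe sets were positive, from 0.12 to 0.42, and all 4 were highest in knockout array 1. Without that array they lay between -0.049 and 0.15.

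Lactate leaves and enters cells through proton-linked transporters. Slc16a1 encodes MCT1, Slc16a3 encodes MCT4, and Bsg encodes basigin, the partner that carries both to the membrane. Slc16a3 had 125, 133 and 83.9 on the wildtype arrays and 192, 121 and 107 on the knockout ones. Only knockout array 1 lay above the wildtype range (log2 fold change 0.24, 95% interval -0.31 to 0.80), and without it the value was 0.019. Slc16a1 had 0.062, and -0.061 without that array. Bsg had 1733, 2413 and 1642 on the wildtype arrays and 1875, 1314 and 1379 on the knockout ones. Knockout arrays 2 and 3 were the lowest while array 1 lay within the wildtype range, at -0.33 (95% interval -0.76 to 0.09), -0.16 without wildtype array 2 and -0.49 without knockout array 1. Without rescaling it was -0.02.

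Pyruvate enters mitochondria through a carrier of which Mpc1 is a subunit. Mpc1 had 675, 665 and 837 on the wildtype arrays and 955, 925 and 856 on the knockout ones. All 3 knockout arrays lay above the wildtype arrays, though array 3 did so narrowly. The means were 726 ± 96.6 and 912 ± 50.8 (SD, n = 3), a log2 difference of 0.33 with an SE of 0.15 (adjusted p from limma, 0.999). Leaving out any single array gave 0.27 to 0.43, and the value was 0.30 with quantile normalization, 0.42 with median scaling and 0.64 without rescaling. Without rescaling the groups of Mpc1 overlapped. Mpc1 had a single probe set, so no other reading of the transcript stands beside it.

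The pyruvate dehydrogenase complex is made of E1 subunits (Pdha1, Pdhb), E2 (Dlat) and E3 (Dld), and kinases (Pdk1, Pdk2, Pdk3) switch it off by phosphorylating E1. The log2 fold changes of the catalytic subunits lay between -0.11 (Pdhb) and 0.066 (Dld). Dld had 441, 410 and 681 on the wildtype arrays and 371, 690 and 554 on the knockout ones. Dlat had 317, 328 and 417 against 249, 402 and 394, and Pdha1 1321, 1232 and 1319 against 945, 1290 and 1477. For these 3 genes knockout array 1 was the lowest of the 6, and without it the values were 0.30, 0.17 and 0.10. The second Pdha1 probe set had 184 in knockout array 1 against 610 to 838 elsewhere, a log2 fold change of -0.74, and -0.19 without that array.

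Of the kinases, Pdk1, a known target of hypoxia-inducible factor, had 0.23 (95% interval -0.20 to 0.66), with its second probe set at 0.12. It was 0.065 without wildtype array 2 and 0.36 without wildtype array 1. Pdk2 had 0.13, and 0.044 without knockout array 1. Pdk3 had 270, 178 and 295 on the wildtype arrays and 165, 286 and 282 on the knockout ones, at -0.029, and 0.21 without knockout array 1.

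Knockout array 1 lay to different sides of the 6-array mean at different steps of the pathway. Its median deviation from the 6-array mean was 0.28 over the 5 lactate genes and -0.20 over the 8 pyruvate entry genes, while the median of all probe sets in that array was -0.0094. Other arrays changed side between steps as well. Wildtype array 2 stood at 0.089 over the lactate genes and at -0.18 over the pyruvate entry genes. Over the 2 glucose transport genes the medians ran from -0.24 (wildtype array 2) to 0.30 (knockout array 2). Knockout array 1 was the lowest array for 4 of the 8 pyruvate entry genes and the highest for 2. Of the 5 lactate genes it was the highest for 3 and the lowest for 1. Over the 28 genes it was the highest for 9 and the lowest for 7, against 25.3% highest and 28.2% lowest over all probe sets. Of 8 rod markers, 5 were also lowest in that array, and their summed signal over all 8 was 25223 there against 27777 to 30766 in the other 5. The summed signal of 9 microglia markers was 2378 there against 1480 to 1748, with 6 of the 7 tested ones highest in that array. Of 7 cone markers, 1 was lowest there and 0 highest, and of 8 Mueller glia markers, 1 was lowest and 1 highest. Astrocyte and pigment epithelium markers, among others, also had their highest sums in knockout array 1. These were 846 against 485 to 671, and 3400 against 1276 to 3062. The parts of cell composition and RNA quality in these deviations were not tested.

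Ratios of isozymes within an array were compared next, because the scaling of an array nearly cancels in them where both genes are bright. It cancels less in the pairs with the dim Pgam2, Pfkfb2 and Pfkfb3. Pgam1 over Pgam2 shifted by -0.22 and turned positive without rescaling. Of 17 pairs planned, 15 could be formed. None passed the test after adjustment (exact two-sided permutation test over 3 against 3 arrays, 0 with a Benjamini-Hochberg adjusted p under 0.05 and 0 with an unadjusted one; the smallest p possible is 0.1). The lowest unadjusted p was 0.20. The groups overlapped in all 15 pairs.

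The shift of the log2 ratio (knockout minus wildtype) ran from -0.45 for Pfkfb2 over Pfkfb3, both of them dim, to 0.34 for Pfkl over Pfkm. The Pfkl over Pfkm ratio stood at 0.89 above the wildtype mean in knockout array 1 and at 0.10 and 0.034 in arrays 2 and 3 (exact permutation p = 0.30). Ldha over Ldhb was -0.71, 0.26 and -0.32 in knockout arrays 1 to 3, against -0.18 to 0.13 in wildtype, a shift of -0.26 (exact permutation p = 0.50; -0.03 without knockout array 1). Hk1 over Hk2 was 0.17, -0.035 and 0.82, and there array 3 was the one apart (shift 0.32, exact permutation p = 0.30). Aldoa over Aldoc ran from -0.067 to 0.067 in wildtype and from -0.16 to 0.10 in knockout arrays. The kinase pair Pdk2 over Pdk3 spread most within knockout, from -0.46 to 0.82.

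**Figure D3:**
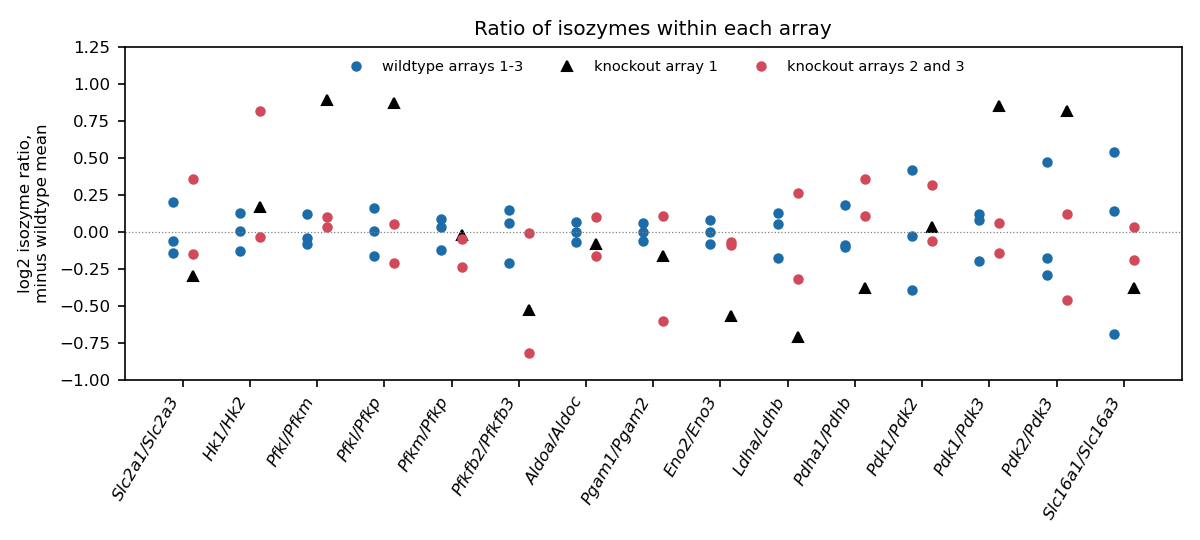
Log2 ratio of 2 isozymes within each array, minus the wildtype mean, for 15 pairs. The groups overlap in every pair, and knockout array 1 reaches 0.89 for Pfkl/Pfkm and -0.71 for Ldha/Ldhb.

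Probe sets of the same gene often disagreed. Of 13 genes with more than 1 tested probe set, 7 had log2 fold changes of a single sign. The spread between the probe sets of a gene was widest for Hk1 (1.13), Pdha1 (0.66) and Pfkp (0.64), and narrowest for Pgk1 (0.041) and Pdhb (0.074). In each of the first 3 the lower probe set read its lowest signal in knockout array 1. Over all 49 tested probe sets of these genes, 21 had positive values.

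**Figure D4:**
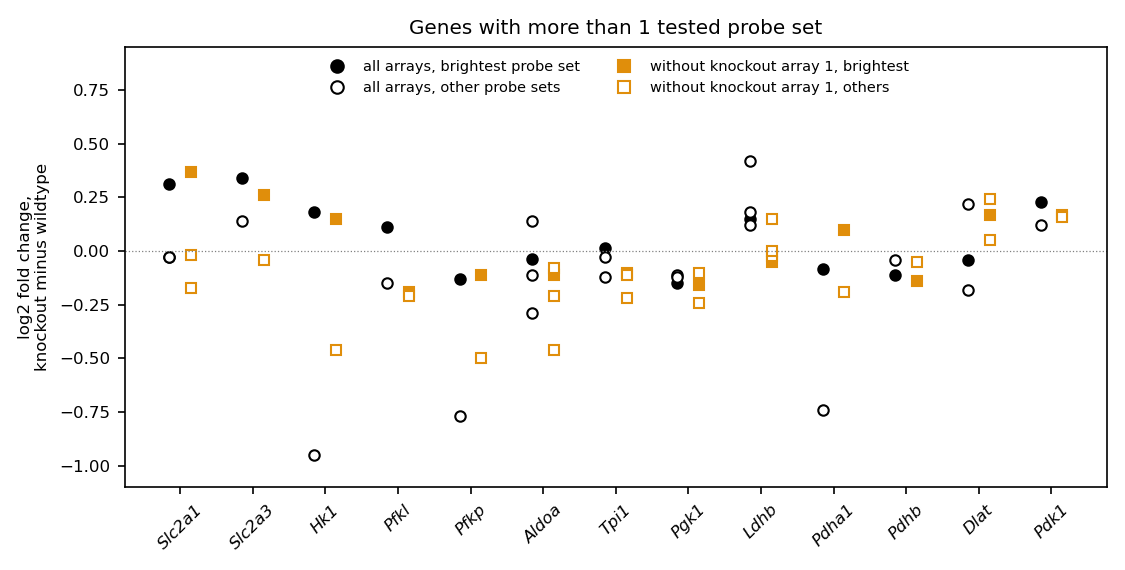
Log2 fold change of every tested probe set for the 13 genes that have more than 1, with all arrays (circles) and without knockout array 1 (squares). Filled symbols mark the brightest probe set, and the open symbols of Hk1, Pfkp and Pdha1 lie far below their filled ones.

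Genes of neighbouring pathways were described from lists that do not contain these 34. Of 19 tested other glycolysis and pyruvate genes, 0 passed (limma adjusted p = 0.999), and 8 had positive and 11 negative values. An unadjusted p under 0.05 (limma) was found for 3 of the 19, against 3.82% of all probe sets. Those 3 were Mdh1 (-0.36), Got1 (-0.45) and Slc25a11 (-0.31), which encode cytosolic malate dehydrogenase, cytosolic aspartate aminotransferase and the oxoglutarate carrier. Their knockout and wildtype arrays did not overlap, as was also so for Emb, another partner of lactate transporters (182, 212 and 241 in knockout against 300, 264 and 243 in wildtype). Emb is named after its values were seen. In all, 4 of the 19 genes did not overlap, against 9.10% of all probe sets. The pentose phosphate list had 3 positive and 6 negative values among 9 tested genes, with 0 past the threshold and 2 at an unadjusted p under 0.05 (limma). The phosphoribosyl pyrophosphate synthetases Prps2 and Prps1 had -0.58 and -0.39, and transketolase (Tkt) 0.21, which was 0.094 without knockout array 1.

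Of 16 tested tricarboxylic acid cycle genes, 8 had positive values, the median was -0.0032 and 0 passed. The succinate dehydrogenase subunits Sdhc, Sdha and Sdhd had -0.37, -0.26 and -0.37, with other probe sets at -0.10, -0.055 and -0.32, and the remaining subunit Sdhb had 0.091. Glycogen genes were positive in 6 of 9, with the phosphorylase Pygm at -0.24, the primer protein Gyg at 0.26 and the kinase subunit Phkb at -0.22. Of 14 hypoxia and Myc regulators and targets, 8 were positive with a median of 0.026, and Vhl, which marks hypoxia-inducible factor for destruction, had -0.54 (-0.33 without knockout array 1). Mycn had 0.28, with its other probe set at -0.34, and the mitochondrial protein Higd1a had 0.30, which was 0.15 without knockout array 1. In these 3 lists too 0 passed the test (limma adjusted p = 0.999). An unadjusted p under 0.05 (limma) was found for 1 cycle gene and 1 hypoxia gene, against 3.82% of all probe sets.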

How the data were processed

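The authors deposited linear signal intensities, 1 for each probe set of an array; the submitters' processing notes name MAS5, and its version and scaling target are not given in the sources used here. RNA was biotin-labelled, per the labels' protocols. Of 22690 probe sets, 64 controls were set aside; of the other 22626, 20380 carry 1 gene symbol in the platform annotation, 691 several and 1555 none, and only the first kind were named. Arrays were brought to a common mean, taken without the highest and lowest 2% of signals. Fold changes are on the scale log2(signal + 19.1), the pseudocount being the 20th percentile, which understates the change of dim genes. Probe sets with a mean above the 40th percentile (62.4) were tested, 13575 in all.

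Knockout and wildtype were compared with limma 3.58.1 (R 4.3.3; lmFit and eBayes with an intensity trend), adjusted by Benjamini-Hochberg over all tested probe sets. Isozyme ratios were compared by exact two-sided permutation over 20 arrangements. The number of arrays limits the precision. Whether an array holds 1 animal or a pool is not stated, so p-values reflect only how these samples spread, which can be technical. The fit was also run 20 times on simulated data with 200 known changes each. Noise was independent and normal, with variances drawn from the fit itself and alike on all arrays. An array that lies apart, as knockout array 1 did, was therefore not simulated. It called 4.8% of the simulated 1.5-fold changes and 45.7% of the 2-fold ones. For 3-fold and 4-fold changes the shares were 89.6% and 96.1%. False calls stood at 6.11%, and interval coverage at 95%, which the way of simulating largely sets. Under these simulated conditions, most changes as small as 1.5-fold would be missed by this test.

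The genes, lists and pairs were chosen with earlier results of these data known. Every gene of the set is accounted for; those with the 12 largest moderated statistics, the members of isozyme pairs and up to 3 genes of each neighbouring list are named. Alternatives covered scaling, pseudocount, filter, trend, array weights, probe set choice, a replicate block and arrays left out. Promoter windows came from RefSeq (GRCm38.p6). The planned protein comparison of isozymes was not run. The targeted gene is not reported here.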

Additional observations from a re-analysis of the deposited data

How the results depend on the processing

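No gene of the set was called in any of the alternatives run, and 0 isozyme ratios passed; the smallest p of the exact test cannot pass its threshold. Over all probe sets the limma count of 2 became 10 without rescaling, 1 without the filter and 4 without wildtype array 2 and knockout array 1; with 1 array left out it ran from 0 (without wildtype array 3) to 4 (without wildtype array 2), with 1 without knockout array 2 or 3. The main setting gave 5 genes whose groups did not overlap. There were 3 with median scaling (Slc2a1, Slc2a3 and Mpc1) and 2 without rescaling (Slc2a3 and Slc16a3), so the genes changed too. The count was 2 with the mean over probe sets, 3 without probe sets of cross-hybridising suffix and 10 without wildtype array 2 and knockout array 1. With 1 array left out it was 5 to 9 (8 without knockout array 1, 9 without wildtype array 3 or knockout array 2), when fewer arrays need to be apart. Replicate numbers did not pair the arrays (correlations of residuals 0.18, -0.029 and 0.084); blocking on that number (a replicate block), the limma count stayed at 2 and 8 genes had all 3 differences of one sign. The median of -0.0074 moved to 0.054 with quantile normalization, 0.083 with median scaling and 0.30 without rescaling, and to between -0.065 and 0.034 with 1 array left out. Of 754 values of genes and ratios under the alternatives, 92 had the opposite sign, over 23 genes and 11 ratios, and none was called; the cause was not tested. The sign turned without rescaling for Aldoa (0.28), Dlat (0.25), Eno2 (0.18), Hk2 (0.15), Ldha (0.21), Pdha1 (0.23), Pdhb (0.20), Pdk3 (0.26), Pfkm (0.072), Pfkp (0.17), Pgam1 (0.15), Pgk1 (0.17), Pkm (0.25) and Pgam1/Pgam2 (0.015). The sign turned with quantile normalization for Aldoa (0.09), Aldoc (-0.01), Ldha (0.06), Pdk3 (0.0017) and Aldoa/Aldoc (0.10). The sign turned with median scaling for Aldoa (0.06), Dlat (0.046), Pdha1 (0.0098), Pdk3 (0.057) and Pkm (0.027). The sign turned with array weights for Aldoc (-0.053), Dlat (0.16), Eno2 (0.025), Pdha1 (0.058), Pdk3 (0.20), Pfkl (-0.13), Slc16a3 (-0.0078) and Tpi1 (-0.082). The sign turned with the mean over probe sets of a gene for Hk1 (-0.38), Pfkl (-0.022), Slc2a3 (-0.19), Tpi1 (-0.046), Hk1/Hk2 (-0.25), Pdha1/Pdhb (-0.33), Pfkm/Pfkp (0.22) and Slc2a1/Slc2a3 (0.27). The sign turned without probe sets of cross-hybridising suffix for Slc2a1 (-0.03) and Slc2a1/Slc2a3 (0.45). The sign turned without wildtype array 2 and knockout array 1 for Aldoc (-0.14), Dlat (0.12), Eno2 (0.012), Ldhb (-0.036), Pdha1 (0.064), Pdk3 (0.0077), Pfkl (-0.14), Slc16a1 (-0.30), Tpi1 (-0.10), Aldoa/Aldoc (0.0025), Pdk1/Pdk2 (-0.064), Pfkl/Pfkp (-0.00045) and Slc2a1/Slc2a3 (0.038). With 1 array left out it turned for Aldoa (-0.11 to 0.043), Aldoc (-0.075 to 0.083), Dlat (-0.15 to 0.17), Dld (-0.13 to 0.30), Eno2 (-0.25 to 0.052), Hk2 (-0.26 to 0.039), Ldhb (-0.049 to 0.43), Pdha1 (-0.22 to 0.10), Pdk3 (-0.23 to 0.21), Pfkl (-0.19 to 0.31), Pkm (-0.15 to 0.0076), Slc16a1 (-0.18 to 0.20), Tpi1 (-0.10 to 0.086), Aldoa/Aldoc (-0.12 to 0.0089), Pdha1/Pdhb (-0.13 to 0.24), Pdk1/Pdk2 (-0.10 to 0.30), Pdk1/Pdk3 (-0.038 to 0.46), Pdk2/Pdk3 (-0.17 to 0.47), Pfkl/Pfkp (-0.078 to 0.46), Slc16a1/Slc16a3 (-0.52 to 0.091) and Slc2a1/Slc2a3 (-0.23 to 0.11).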

Other observations

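The malate-aspartate shuttle carries the reducing power of cytosolic NADH into mitochondria and so competes with lactate dehydrogenase for it. Its genes Mdh2, Got2 and Slc25a13 were looked at after the values of Mdh1, Got1 and Slc25a11 had been seen. Mdh1 had scaled signals of 3190, 3391 and 3197 in wildtype against 2227, 2453 and 2963 in knockout, with all knockout arrays below (log2 fold change -0.36 ± 0.13, SE; limma adjusted p = 0.999). Its other 2 tested probe sets had 0.38 and 0.13. Got1 had 1740, 2165 and 2031 against 1150, 1510 and 1716. Slc25a11 had 1152, 1299 and 1261 against 883, 1059 and 1042. Both were again without overlap, as were 9.10% of all probe sets. Each of the 3 was lowest in knockout array 1, and without it the values were -0.27, -0.29 and -0.23. Without rescaling they were -0.047, -0.13 and -0.00079. The mitochondrial forms Mdh2 and Got2 had 0.02 and -0.10, with second probe sets at -0.033 and -0.48 (-0.15 for the latter without knockout array 1), and the carrier Slc25a13 had -0.0014.

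The phosphoribosyl pyrophosphate synthetase Prps2 had 140, 154 and 108 in wildtype against 79.5, 77.3 and 90.7 in knockout. Its log2 fold change was -0.58, and -0.56 without knockout array 1 (limma adjusted p = 0.999). Its paralog Prps1 had 777, 821 and 959 against 533, 734 and 680 (-0.39, and -0.26 without that array). The groups overlapped for neither gene, and 9.10% of all probe sets were without overlap.

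The signals of 16 lens markers, most of them crystallins, summed to 454, 455 and 2591 in wildtype against 1013, 638 and 1533 in knockout. Pigment epithelium markers summed to 3062, 1276 and 2334 against 3400, 2176 and 3012. The part of such tissue in any value given here was not tested.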
